A study of Astatotilapia calliptera with 66 samples.

Results

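The low-methylated CG sites are the CG dinucleotides that stayed close to unmethylated in the livers of wild *Astatotilapia calliptera* from Lake Masoko and the Mbaka River. Members were the sites on the 22 linkage groups with a mean methylation under 20% over 35 fish and with population means that lay within 20 points of each other. A total of 48371 sites were members, 35.8% of the 135040 sites on linkage groups and 31.8% of the 151900 sites of the table. The members were thus selected on the mean over the fish and the range of the population means, so levels, spreads and population differences at the members are given as descriptions, without a test.

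In vertebrate genomes most CGs are methylated by DNA methyltransferases, and methylated CGs are lost over time because methylcytosine mutates readily. CG-dense stretches known as CpG islands are the usual exception. They are held unmethylated, often at promoters, through proteins that bind unmethylated CGs and through TET enzymes that oxidise methylcytosine.

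Livers of 12 benthic, 12 littoral and 11 riverine adult males, each a separate wild-caught fish, were profiled by reduced-representation bisulphite sequencing (RRBS). RRBS reads CG-rich fragments after bisulphite conversion. The paper states that samples were multiplexed in sequencing pools of 12, with the ecomorphs randomized among pools. That grouping was not used here. Benthic fish are the deep-water and littoral fish the shallow-water ecomorph of the lake, and riverine fish came from the river nearby. The value of a site in a fish is the percentage of reads that kept the cytosine. Read numbers behind single values are unknown, except that the column names carry a minimum coverage mark of 4, and no counting interval can be given.

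RNA of 13 of the same fish (5 benthic, 4 littoral and 4 riverine) served to check the tissue. The hepatocyte genes that could be matched by symbol (apob, fgb, fgg and serpinc1, 4 of 12) summed to between 14104 and 30538 TPM in a liver. The matched leukocyte genes (4 of 7) summed to between 4.501 and 124 TPM in benthic, 2.91 and 22.7 TPM in littoral and 3.14 and 6.04 TPM in riverine livers. The matched pancreas genes (2 of 7) summed to between 135 and 664 TPM in benthic, 444 and 1627 TPM in littoral and 157 and 2069 TPM in riverine livers. Of 7 erythrocyte genes only gata1 was matched. It lay at 0.0819 to 0.5004 TPM in benthic, 0.0740 to 2.18 TPM in littoral and 0.917 to 12.4 TPM in riverine livers. Benthic and riverine livers did not overlap, but all benthic and no riverine RNA columns carry a trimming mark in their names. Population and read processing thus cannot be told apart there. The paper reports higher RNA of other erythroid genes, among them EpoR and Eklf, in benthic than in littoral livers. The erythroid content of the livers is therefore not given by gata1 alone. The part of other cell types in the methylation values was not tested.

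Most members lay near 0. The mean over the fish had a median of 0.696% and quartiles of 0.279% and 1.599%. A total of 30025 members (62.1%) had a mean under 1%, 44444 (91.9%) under 5%, and 1425 (2.95%) had a mean of 10% or more. Of all member values, 83.9% were exactly 0, and 4183 members (8.65%) were at 0 in every fish. The median member was above 0 in 4 fish, and 44 members were above 0 in all 35. The 123 CG sites of the mitochondrial sequence, measured in the same libraries, averaged 1.43% (between 0.448% and 4.26% in a fish), and 72.3% of the members had a mean below that. According to the paper, bisulphite conversion of the spike-in controls of these libraries was not complete. The part of unconverted cytosines in levels this low was not tested.

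The members nearest the limit on the mean were NC_036790.1:3574314 at 19.98%, NC_036790.1:5016674 at 19.96% and NC_036785.1:2969788 at 19.96%. Just outside were NC_036800.1:30959287 at 20.003%, NC_036792.1:27414098 at 20.006% and NC_036798.1:8546034 at 20.07%. A mean near 20% was an average of unlike livers at NC_036785.1:2969788, where benthic fish ranged from 0 over a median of 14.9% to 65.6%, littoral fish from 0 over 3.78% to 48.1%, and riverine fish from 0 over 11.9% to 78.6%. The limit of 20 points on population means left out 694 of the 49065 sites under 20%. The widest members, NC_036791.1:17391416 and NC_036796.1:6428430, had population means that spanned 19.996 and 19.99 points, and the nearest sites left out, NC_036789.1:23586591 and NC_036785.1:3193328, spanned 20.01 and 20.02 points.

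Low-methylated CGs stood closer to other CGs than methylated CGs did. With both strands of a CG merged, 42956 of 122456 distinct CGs (35.1%) were low-methylated, 15342 were intermediate and 63525 had a mean over 80%. The nearest CG of the table was a median of 8 bp away for low-methylated CGs (quartiles 4 and 16 bp), 16 bp for intermediate CGs and 10 bp for highly methylated CGs. Within 100 bp on either side, a low-methylated CG had 4.89 other CGs on average, an intermediate CG 2.59 and a highly methylated CG 3.43. At least 10 neighbours were found around 8.60% of low-methylated CGs and around 3.09% of highly methylated CGs, and none around 2.96% and 8.70% of them.

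The share of CGs that were low-methylated was higher at every step of CG density. It was 13.5% of the 9403 CGs with no neighbour within 100 bp, 32.0% of those with 3 neighbours, 52.2% of those with 7 to 9 and 66.8% of the 633 CGs with 15 to 21. The share of intermediate CGs was lower at every step, from 27.2% with no neighbour to 2.69% with 15 to 21. CG density still did not set the class of a single CG, since 29.9% of the CGs in the densest group were over 80% methylated. The table holds only CGs covered in all fish, so its spacing is that of the RRBS fragments and not of the whole genome.

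**Figure D1:**
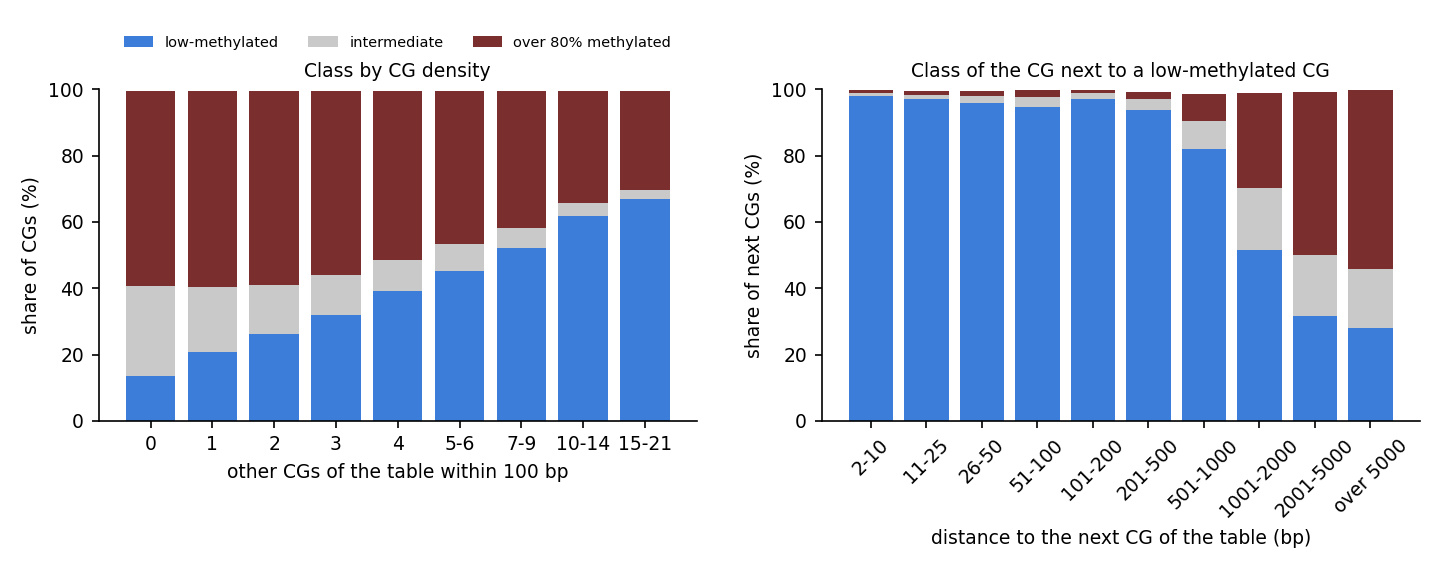
Left, share of distinct CGs (%) in each methylation class by the number of other CGs of the table within 100 bp; right, class of the next CG (%) by its distance in bp from a low-methylated CG. Sites under 20% that were left out for their population range are not drawn. The low-methylated share is 13.5% with no neighbour and 66.8% with 15 to 21, and the next CG is low-methylated in 97.9% of cases at 2 to 10 bp and in 27.9% beyond 5000 bp.

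Neighbouring CGs were mostly of the same class over distances up to 500 bp. The next CG after a low-methylated CG was itself low-methylated in 97.9% of 16384 cases at 2 to 10 bp, in 94.7% at over 50 and up to 100 bp and in 93.8% at over 200 and up to 500 bp. The share was 82.0% from there to 1000 bp, 51.6% from there to 2000 bp and 31.7% from there to 5000 bp. Beyond 5000 bp it was 27.9%, below the 35.1% of all CGs but above the 20.7% found at that distance after a highly methylated CG. Between successive CGs of the same class 2 to 40 bp apart, a gap of 2 bp, as in CGCG, made up 8.99% of the gaps for low-methylated and 5.79% for highly methylated CGs. Gaps that were a multiple of 3 bp made up 34.7% and 37.2% of them.

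Members formed runs, taken here as neighbouring members with no other site of the table between them and no gap over 200 bp. There were 9390 runs. Of these, 2030 held a single site and 3942 held at least 5 sites. The runs of 5 or more held 36367 members (75.2%), with a median of 7 sites over 102 bp, and the longest run spanned 980 bp. The 210 runs of 20 or more sites had a median level of 0.722%, and 188 of them averaged under 2%. Runs of a single site had a median level of 1.81%.

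The 5 runs with the most sites show what such a stretch looked like in each liver. The largest, NC_036797.1:1272693-1273455, held 63 sites on 47 CGs. Its mean ranged from 0.541% over a median of 0.863% to 4.66% in benthic fish, from 0.106% over 0.970% to 2.36% in littoral fish, and from 0.369% over 0.944% to 1.8% in riverine fish. The populations overlapped, and 2 benthic fish (3.12% and 4.66%) lay above every littoral and riverine fish. NC_036785.1:634945-635842 (47 sites on 42 CGs) averaged 0.844% in benthic, 0.379% in littoral and 0.472% in riverine fish, and NC_036800.1:31920743-31921304 (47 sites on 39 CGs) 0.805%, 0.785% and 0.445% in the same order. In NC_036792.1:1956034-1956623 (41 sites on 35 CGs) no fish exceeded 1.46%.

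The remaining run of these 5, NC_036786.1:60562493-60563076 with 41 sites on 29 CGs, was less uniform. Its mean ranged from 0.354% over 1.38% to 11.7% in benthic fish, from 0.0129% over 1.44% to 36.4% in littoral fish, and from 0.274% over 4.03% to 10.1% in riverine fish. The highest liver was littoral 4, and 13 of the 35 fish stayed under 1%. A long unbroken run was therefore not always near 0 in every liver. These stretches are given by position on the *Maylandia zebra* assembly, whose gene annotation was not used here.

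The level of a member went with its distance from sites outside the class. The 703 members within 10 bp of such a site averaged 7.29%, with a median fish-to-fish SD of 9.89 points, and 40.8% of them had a fish at 50% or more. Members over 100 and up to 200 bp away averaged 5.27%, those over 200 and up to 500 bp away 2.98%, and those over 500 and up to 1000 bp away 1.58%. The 43669 members over 1000 bp away averaged 1.33%, with a median SD of 2.35 points, and 5.26% of them had a fish at 50% or more. The difference between benthic and riverine fish was also larger within 200 bp of such a site than further away. Sites outside the class include the 694 sites under 20% that the rule left out because their population means differed. The larger difference beside sites outside the class may thus follow in part from the rule, and that part was not tested. Within 10 bp, benthic fish averaged 8.63%, littoral fish 6.56% and riverine fish 6.62%. Over 1000 bp away, the averages were 1.49% in benthic, 1.26% in littoral and 1.24% in riverine fish.

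**Figure D2:**
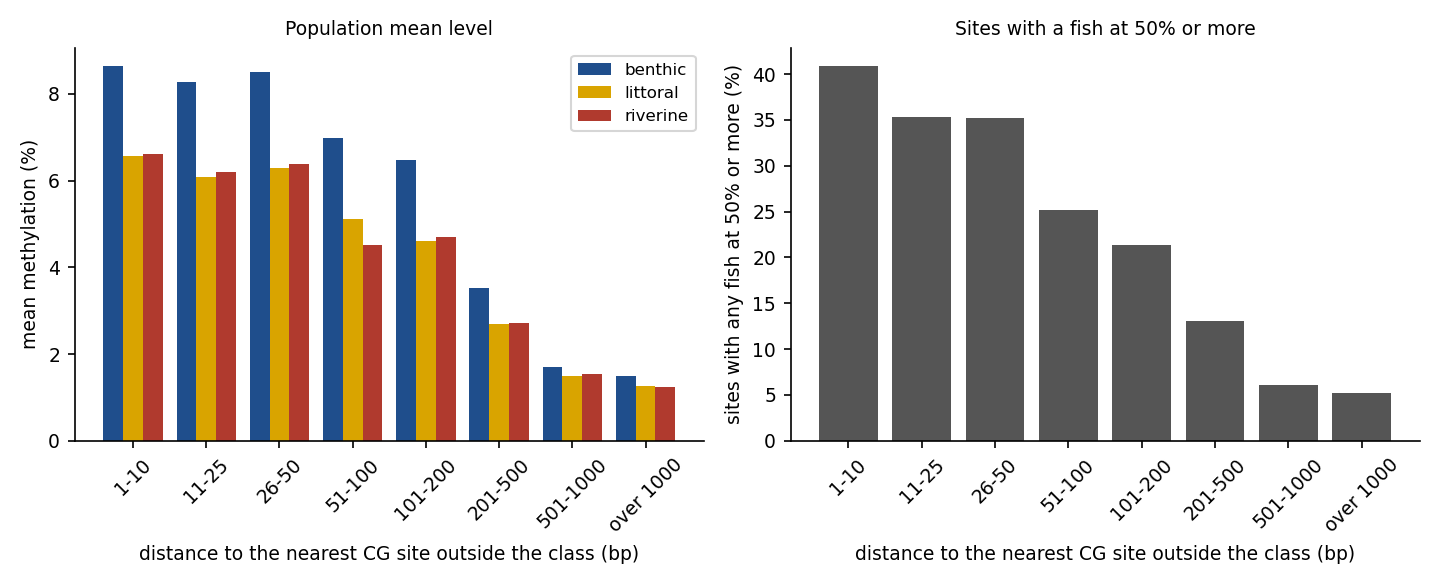
Low-methylated sites by distance in bp to the nearest CG site outside the class. Left, mean methylation (%) in each population; right, share of sites (%) with any fish at 50% or more. Benthic bars are the highest in each group, and the share is 40.8% within 10 bp and 5.26% over 1000 bp away.

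Isolation had a similar relation to level. Members with no other CG of the table within 100 bp averaged 3.05%. Those with 10 or more other sites, each strand of a neighbouring CG counted, averaged 1.17%. The benthic average was 3.53% and 1.25% in these groups, the littoral average 2.83% and 1.13%, and the riverine average 2.76% and 1.12%.

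The strands of a CG, read from different molecules, mostly had the same class. Both strands were in the table for 12584 CGs, of which 5387 had both strands as members and 68 had a single strand as a member. The strand means of the 5387 differed by a median of 0.469 points and at most by 16.7 points. High values in single fish were shared less often. Among 700 values of 50% or more on a member strand, the opposite strand of the same fish was also at 50% or more in 20.9%, under 20% in 49.9% and at exactly 0 in 31.6%.

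Fish-to-fish spread was small at most members. The median SD over the 35 fish was 2.45 points (quartiles 1.17 and 4.76), against 22.2 points at intermediate sites and 8.97 points at sites over 80%. Members were selected for a mean under 20%, and a low mean leaves little room for spread on a percentage scale. The smaller SD than in the other classes thus follows in part from the rule, and that part was not tested. Among members, the SD went up with the mean, which the same limit also favours. It was 1.47 points at members with a mean under 1%, 4.17 at 1 to 2%, 6.88 at 2 to 5%, 10.9 at 5 to 10% and 14.9 at 10 to 20%. Within populations, the average SD of a member was 3.33 points among benthic, 2.96 among littoral and 2.74 among riverine fish. The median SD of a member was closer, with 1.56 points among benthic, 1.43 among littoral and 1.45 among riverine fish.

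A minority of members were methylated in single livers. At 3335 members (6.89%) at least 1 fish reached 50%, and at 2451 of these (73.5%) exactly 1 fish did. At most 7 fish did so at any member, and at 355 members a fish reached 100%. Such values were more frequent at low depth in benthic and littoral fish. When the fish were ranked by mapped reads, the 17 shallower fish had 0.369% of members at 50% or more on average and were the single fish at 100.9 members each, against 0.192% and 40.9 members in the 18 deeper fish. The share at 50% or more was 0.521% in shallower against 0.228% in deeper benthic fish, 0.317% against 0.137% in littoral fish and 0.233% against 0.201% in riverine fish. The shallower fish also had more members at exactly 0, with 86.6% against 81.3%. How much of the spread at single members is counting error was not tested, and sequence variants between the fish were not examined.

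The 5 members with the largest SD were methylated in some livers of every population. NC_036782.1:12543507 had an SD of 29.3 points, with values from 0 over a median of 6.91% to 82.5% in benthic fish, from 0 over 0 to 100% in littoral fish, and from 0 over 0 to 94.1% in riverine fish. The member 23 bp away, NC_036782.1:12543484, had an SD of 29.2 points and ranged from 0 to 82.5% in benthic, from 0 to 100% in littoral and from 0 to 100% in riverine fish. NC_036785.1:7383412 (SD 28.9 points) lay 3 bp from a site that averaged 94.7%, and 7 benthic, 7 littoral and 8 riverine fish were at 0 there. NC_036796.1:26535886 and NC_036796.1:16667586 had SDs of 28.5 points each, and their populations overlapped from 0 to at least 80%.

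High values in some livers extended over whole runs. Of the 3942 runs of 5 or more sites, 3113 (79.0%) averaged under 10% in every fish. In 58 runs at least 1 fish averaged 50% or more, and in 45 exactly 1 fish did, a benthic fish in 18 runs, a littoral fish in 14 and a riverine fish in 13. These 45 runs were spread over 24 fish, with at most 4 runs in a fish. Close sites of a run share reads and fragments, so they are not separate measurements of a fish.

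The largest of the 45 were as follows. At NC_036796.1:4781182-4781386 the 18 sites averaged 69.3% in riverine 3, with every site between 45.8% and 100%, while the next fish averaged 9.58% and the median fish 1.44%. At NC_036781.1:12286103-12286169 the 13 sites lay between 61.04% and 67.53% in riverine 7, and the next fish averaged 7.69%. At NC_036786.1:46838146-46838275 the 12 sites lay between 57.1% and 68.2% in benthic 7, and the next fish averaged 3.77%. In each of these the other 34 fish formed a low group well apart from a single high liver. At NC_036798.1:24137901-24138044, in contrast, benthic 5 averaged 55.7% over 15 sites and littoral 1 followed with 48.1%. At NC_036782.1:24637601-24637672, riverine 1 averaged 90% over 12 sites and riverine 7 followed with 48.0%.

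Fish that stood high at a member tended to stand high at the next. Among successive low-methylated CGs with means of at least 5%, the correlation of values over the 35 fish had a median of 0.59 for 644 pairs 2 to 10 bp apart, 0.50 for 615 pairs 11 to 50 bp apart and 0.19 for 104 pairs over 50 and up to 200 bp apart. It was 0.17 for 34 pairs over 200 and up to 1000 bp apart and -0.01 for 41 pairs further apart. Successive CGs share reads and fragments at short distances, and all share the fish and their depth, so these values are a description. A correlation between strands could be computed only where both strands were members and both varied between fish. Its median was -0.04 for these 4662 CGs, and it was 0.24 for the 351 CGs with a mean of at least 5%.

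Averaged over all members, benthic livers were the highest. The member mean of a fish ranged from 1.38% over a median of 1.88% to 2.33% in benthic fish, from 1.35% over 1.51% to 1.736% in littoral fish, and from 1.27% over 1.48% to 1.819% in riverine fish. The averages were 1.87 ± 0.23% in benthic (SD, n = 12), 1.53 ± 0.11% in littoral (SD, n = 12) and 1.51 ± 0.14% in riverine fish (SD, n = 11). The ranges overlapped, with 10 of 12 benthic fish above the highest littoral fish and 8 above the highest riverine fish. The share of members at 20% or more averaged 2.83% in benthic, 2.03% in littoral and 1.73% in riverine fish.

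**Figure D3:**
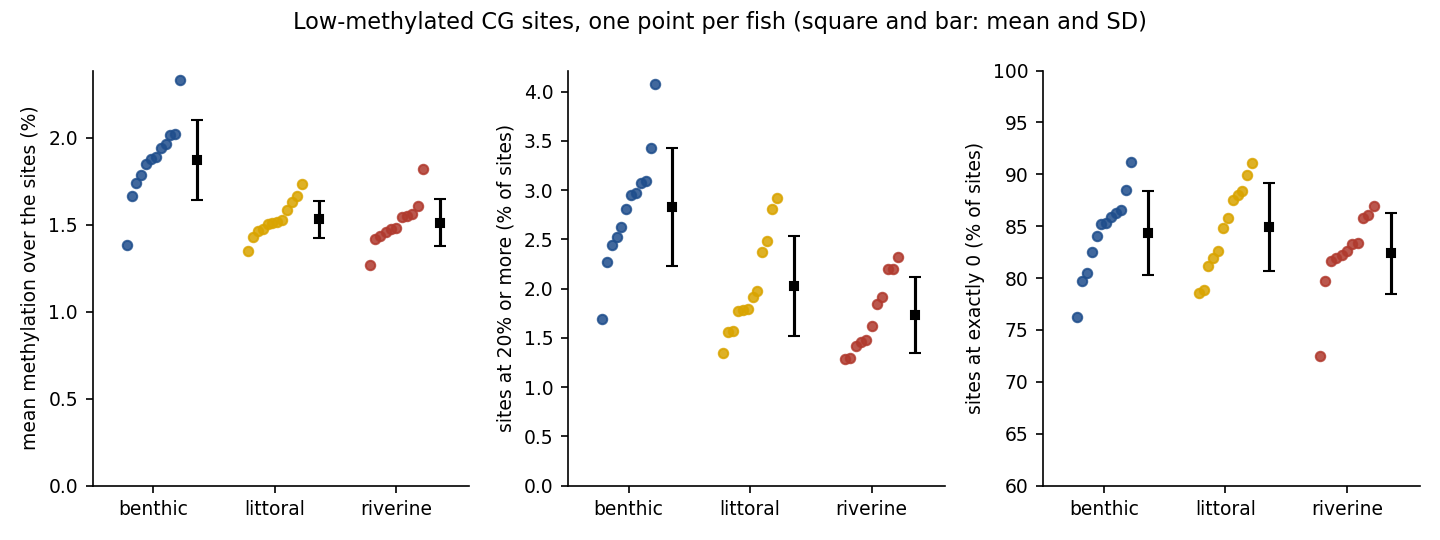
Each point is a fish; the vertical axes give its mean methylation over the low-methylated sites (%), its share of these sites at 20% or more (%) and its share at exactly 0 (%), the last on an axis that starts at 60%. Squares and bars are population means and SDs. The benthic fish average 1.87% and lie mostly above the littoral (1.53%) and riverine fish (1.51%), whereas the shares at 0 overlap.

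The mitochondrial sites did not follow that order. They averaged 1.715% in benthic, 1.769% in littoral and 0.745% in riverine fish. Sites over 80% averaged 93.3% in benthic, 93.0% in littoral and 91.2% in riverine fish, and intermediate sites 62.9%, 54.4% and 52.5% in the same order. In the fish with at least 6000000 mapped reads, the member means were 1.89% in 11 benthic, 1.55% in 8 littoral and 1.51% in 11 riverine fish. The part of the mitochondrial level, of incomplete bisulphite conversion and of depth in the member means was not tested.

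At a typical member the populations were nearly level. The median difference of population means was 0 in every comparison, and the difference was within 1 point at 60.4% of members for benthic against riverine fish, 63.2% for littoral against riverine fish and 60.7% for benthic against littoral fish. The average difference was 0.36 points for benthic minus riverine, 0.02 points for littoral minus riverine and 0.34 points for benthic minus littoral. The benthic mean was above the riverine and the littoral mean on 22 of 22 linkage groups, and the littoral mean was above the riverine on 13. All linkage groups were read in the same fish and libraries, so they are not independent of each other. Benthic and littoral fish were compared with the same riverine fish.

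The benthic excess was larger at members with higher means. The members were sorted by the mean over the same fish, benthic fish included, so a site raised in benthic fish falls in a higher group. This gradient is therefore partly built in. At members under 1% the averages were 0.388% in benthic, 0.376% in littoral and 0.420% in riverine fish, so that riverine fish were slightly the highest there. At 2 to 5% they were 3.54% in benthic, 2.90% in littoral and 2.78% in riverine fish. At 5 to 10% they were 8.42% in benthic, 6.30% in littoral and 6.32% in riverine fish, and at 10 to 20% they were 16.9%, 12.9% and 12.0% in that order.

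Larger shifts were uneven in direction. Benthic fish were at least 5 points above riverine fish at 2352 members and below at 1008, and at least 5 points above littoral fish at 2163 and below at 946. Littoral fish were at least 5 points above riverine fish at 1212 members and below at 1063. At 10 points or more the counts were 862 above and 291 below for benthic against riverine fish, 675 and 155 for benthic against littoral fish, and 241 and 280 for littoral against riverine fish. The rule capped any difference at 20 points, so these counts describe small shifts only.

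**Figure D4:**
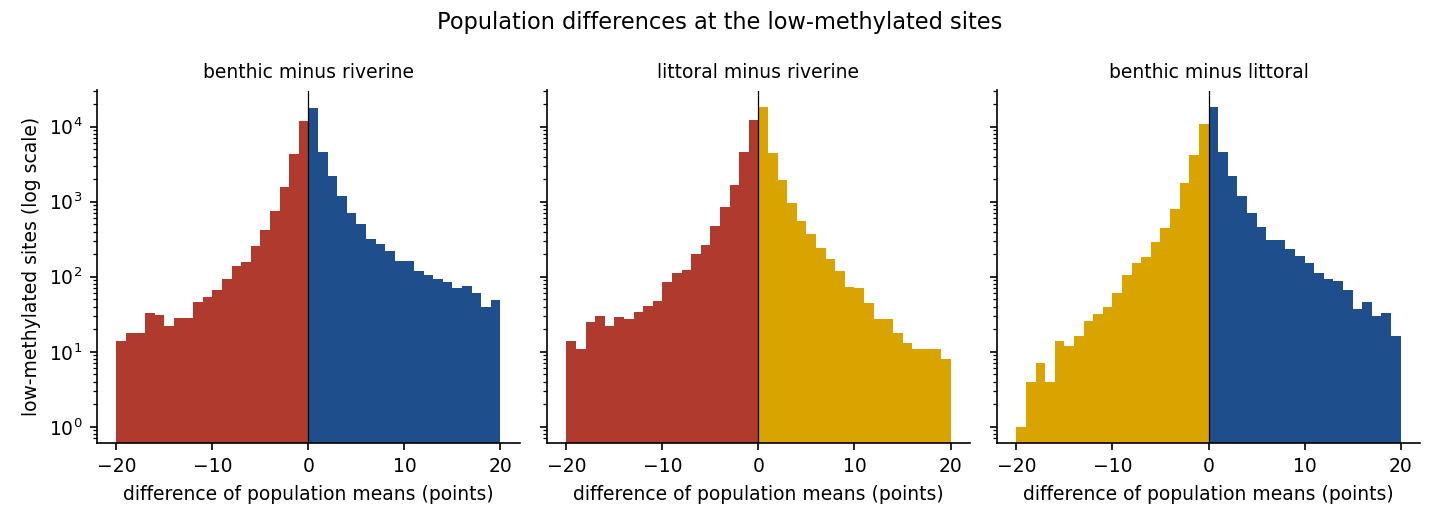
Number of low-methylated sites (log scale) by the difference of population means in points, in bins of 1 point, for each pair; the bar right of 0 includes sites with no difference, and colours mark which population is higher. The right side is heavier in both comparisons of benthic fish (862 sites at 10 points or more against 291 for benthic minus riverine), whereas littoral minus riverine is nearly even (241 against 280).

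Shifts of a single population away from both others were most often upward in benthic fish. At a limit of 5 points, benthic fish stood above both others at 1650 members and below both at 206, littoral fish at 563 and 247, and riverine fish at 658 and 480. At the higher limit, the benthic mean was at least 10 points above both other means at 511 members and at least 10 points below both at 30. At these 511 members the median benthic mean was 20.4%, beside 6.49% in littoral and 5.80% in riverine fish, and a median of 5 of 12 benthic fish reached 20%. The littoral mean stood out upwards at 73 members and downwards at 31. The riverine mean stood out upwards at 188 members, where a median of 3 of 11 riverine fish reached 20%, and downwards at 74.

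The limma test across all 147188 sites that varied between fish used the same contrasts as the rule, and nothing is read from its counts at the members, of which 44188 varied. At an adjusted p under 0.05 it called 284 members for benthic minus riverine, beside 4.72% of all sites, with 218 members higher in benthic fish (background 3.85%) and 66 lower (background 0.866%). For littoral minus riverine it called 25 members, beside 0.860% of all sites, with 4 higher in littoral fish (background 0.499%) and 21 lower (background 0.361%). For benthic minus littoral it called 125 members, beside 2.00% of all sites, with 111 higher in benthic fish (background 1.73%) and 14 lower (background 0.276%). With only the fish of at least 6000000 mapped reads, 24 members were called for benthic minus littoral, beside 0.561% of all sites, and 11 for littoral minus riverine, beside 0.540%.

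The members with the largest statistics show what a small shift looked like fish by fish. At NC_036790.1:4775073 benthic fish ranged from 9.67% over a median of 26.9% to 39.0%, littoral fish from 2.64% over 11.2% to 22.1%, and riverine fish from 0 over 6.27% to 18.2%. A total of 10 benthic fish, 1 littoral fish and no riverine fish reached 20%. The next site, 35 bp away, averaged 18.8% in benthic, 5.6% in littoral and 6.9% in riverine fish. At NC_036790.1:18944206 benthic fish ranged from 13.95% over 21.4% to 50%, littoral fish from 0 over 10.99% to 25%, and riverine fish from 0 over 2.94% to 15.8%. The benthic and riverine ranges overlapped between 9.67% and 18.2% at the first of these sites and between 13.95% and 15.8% at the other.

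At the 2 members named for being lower in benthic than in riverine fish, most benthic and most littoral fish were at or near 0. At NC_036792.1:22256071 benthic fish were at 0 in 11 of 12 livers and at most at 1.33%, littoral fish were at 0 in 10 of 12 and at most at 1.75%, and riverine fish ranged from 0 over 18.2% to 37.0%. The next site, 19 bp away, was not a member and averaged 66.9% in benthic, 44.95% in littoral and 35.97% in riverine fish, the opposite order. At NC_036782.1:22568576 benthic fish ranged from 0 over 0 to 13.2%, littoral fish from 0 over 0 to 5.22%, and riverine fish from 0 over 20.3% to 44.6%. The same sites led the list of members lower in littoral than in riverine fish.

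Members with a higher mean in littoral than in riverine fish included sites of low and of moderate level. At NC_036797.1:28567949, which had no other site of the table within 50 bp, littoral fish ranged from 3.18% over 10.05% to 23.6%, benthic fish from 1.856% over 4.95% to 14.03%, and riverine fish from 0 over 0.225% to 9.22%. At NC_036798.1:8441975 littoral fish ranged from 9.90% over 26.7% to 42.7%, benthic fish from 0 over 15.7% to 33.6%, and riverine fish from 2.72% over 8.14% to 19.4%. The next site, 6 bp away, averaged 9.2% in littoral, 8.5% in benthic and 3.9% in riverine fish.

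Between the lake ecomorphs, benthic fish stood above littoral fish at NC_036791.1:18712586, where they ranged from 18.1% over 23.0% to 34.8%, against 5.93% over 12.8% to 16.3% in littoral fish. The ranges did not overlap, and riverine fish lay between 5.88% and 24.1%. The opposite strand of the same CG averaged 26.1% in benthic, 10.4% in littoral and 17.3% in riverine fish. At NC_036791.1:4869326 benthic fish ranged from 14.9% over 29.2% to 42.0%, littoral fish from 0.943% over 8.06% to 30.8% and riverine fish from 4.56% over 10.7% to 25.7%.

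The reverse was seen at NC_036789.1:20682695, where benthic fish ranged from 0 over 0.246% to 10.6%, littoral fish from 0.361% over 12.6% to 30.4%, and riverine fish from 0 over 2.83% to 15.2%. At NC_036782.1:22318050 benthic fish ranged from 0 over 9.95% to 21.2%, littoral fish from 0 over 32.7% to 42.6%, and riverine fish from 3.42% over 14.98% to 36.8%. The next CG, 2 bp away, averaged 19.7% in benthic, 43.8% in littoral and 30.6% in riverine fish, the same order.

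Shifts also covered whole runs, whose close sites share reads. Of the 3942 runs of 5 or more sites, benthic fish exceeded riverine fish by at least 5 points in 89 and lay as far below them in 30. The counts were 33 and 34 for littoral against riverine fish, and 75 and 23 for benthic against littoral fish. For each pair and direction, the 2 runs with the largest difference were chosen after their values were seen, which gave 10 distinct runs. The median fish of the higher population was at 15.75% or more in 3 of them and at 2.57% or less in the other 7, where between 2 and 4 fish of that population reached 20%.

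In runs A to C, the 3 with a raised median fish, 6 fish of the higher population reached 20%. At NC_036788.1:18113081-18113165 (run A, 6 sites) the run mean ranged from 5.46% over 18.2% to 41.2% in benthic fish, from 0 over 8.90% to 30.8% in littoral fish, and from 0 over 3.49% to 10.4% in riverine fish. At NC_036783.1:3685300-3685425 (run B, 9 sites) it ranged from 2.39% over 19.2% to 46.4% in benthic fish, from 3.87% over 5.79% to 12.3% in littoral fish, and from 0.610% over 3.67% to 14.03% in riverine fish. At NC_036796.1:33261707-33261757 (run C, 5 sites) it ranged from 0 over 2.79% to 17.3% in benthic fish, from 0 over 15.8% to 29.1% in littoral fish, and from 0 over 5.40% to 24.4% in riverine fish. Population ranges overlapped in all of these runs.

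Runs D to F are taken from the other 7. At NC_036791.1:27453386-27453443 (run D, 6 sites) 3 benthic fish averaged 58.6%, 64.4% and 75.6%, and the next benthic fish 2.75%, while no littoral fish exceeded 2.84% and no riverine fish 7.76%. At NC_036786.1:47519988-47520034 (run E, 7 sites) 3 riverine fish averaged 59.6% (riverine 3), 65.3% (riverine 7) and 65.5% (riverine 4). The next riverine fish averaged 0.912%, while no benthic fish exceeded 2.38% and no littoral fish 1.71%. The same fish stood out at NC_036796.1:24532784-24532999, another of the 7, where riverine 3 averaged 65.1%, riverine 4 65.6% and riverine 7 60.7%. At NC_036781.1:16558116-16558159, also of the 7, riverine 3 averaged 89.8% and riverine 4 90%, beside 0 in riverine 7 and 72.3% in littoral 1. The higher riverine means of these 3 runs thus came largely from the same fish. At NC_036785.1:13112067-13112171 (run F, 7 sites) 4 littoral fish averaged between 36.6% and 52.4%, 2 benthic fish exceeded 20%, with 33.9% and 51.2%, and no riverine fish exceeded 3.76%. The median fish of the higher population was at 0.775% in run D, 0.879% in run E and 1.38% in run F, close to the other populations.

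**Figure D5:**
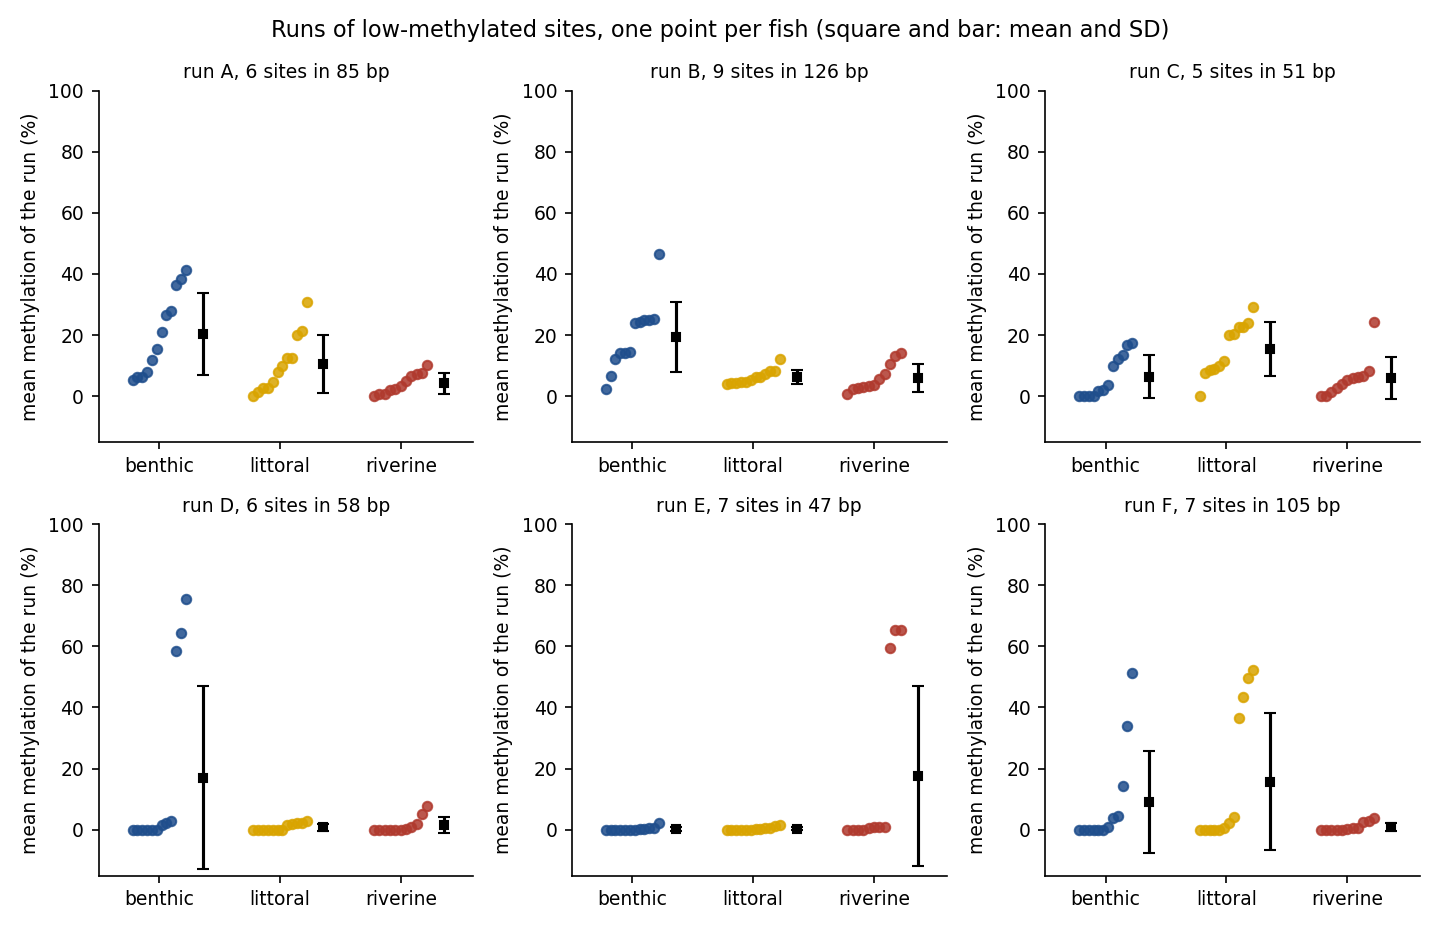
Mean methylation (%) of 6 of the 10 runs of low-methylated sites; each point is a fish, and squares and bars are population means and SDs. In runs A to C many fish of the higher population are raised (benthic medians of 18.2% in A and 19.2% in B, littoral median of 15.8% in C), whereas in D to F a few livers lie well above the others (58.6% to 75.6% in benthic fish of D).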

How the data were processed

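The authors trimmed the RRBS reads with Trim Galore, aligned them to the *M. zebra* assembly (UMD2a) with Bismark and deposited a percent methylation per fish for the CG sites covered in all 35 fish, without normalization. They deposited kallisto TPM for liver RNA, used here only for marker genes, summed by symbol. WGBS samples were not used here, and 0 sample columns remained unassigned.

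Neighbouring positions 1 bp apart were taken as the strands of a CG. Percentages were modelled in R 4.3.3 with limma 3.58.1 (empirical Bayes with a trend, the populations in a single fit, Benjamini–Hochberg adjustment), which was tested on simulated data. The main fit had no covariate. Mapped reads served as a covariate in an alternative fit, for ranking and as a filter of 6000000 reads. Other tools were data.table (version 1.17.8) in R and, in Python 3.11.15, numpy 2.4.6, pandas 2.3.3 and matplotlib 3.10.9. Gene annotation of that assembly was not used here, so the planned comparison of RNA at genes with low-methylated promoters was not run.

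Members, lists and alternatives were chosen with earlier results of these data known. Named sites were, for each pair, the 2 members in each direction with the largest moderated statistic; the 5 members with the largest SD; those nearest the limits; and the 5 runs with the most sites. Shifted and single-fish runs and CGs with unlike strands were chosen after their values were seen. Populations are separate wild fish. Read depth per site limits the precision of single values.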

Additional observations from a re-analysis of the deposited data

Results flagged for a closer look

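The summed leukocyte markers (ptprc, spi1, lck and mpeg1) of the liver RNA held 2 samples far from the others of their population. Benthic 5 of the RNA samples had 124 TPM, and the other benthic livers between 4.501 and 13.33 TPM. Littoral 2 of the RNA samples had 22.7 TPM, and the other littoral livers between 2.91 and 6.10 TPM. The gap to the nearest liver took 0.926 of the benthic and 0.839 of the littoral range, and the limit applied is passed by chance in about 1 in 20 groups. The RRBS libraries of the same fish averaged 1.742% (benthic 12) and 1.59% (littoral 6) over the low-methylated sites, within the ranges of their populations. The relation between these measures was not tested.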

How the results depend on the processing

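The count of low-methylated sites stayed between 42956 and 54032 under 8 other definitions, within 1.5 times the reported 48371. The excess of CG neighbours over highly methylated CGs was 1.43-fold within 100 bp, 1.32-fold within 50 bp and 1.858-fold within 500 bp. Runs of 5 or more sites numbered between 3864 and 3944 with gaps of 100 or 500 bp, chosen after seeing the data. In alternatives added likewise, benthic minus riverine lay between 0.18 and 0.40 points and benthic minus littoral between 0.17 and 0.48 points. Both lowest values came with population means within 10 points of each other, and both highest with no such limit. The size of the benthic excess thus depended on that limit of the rule. Without benthic 5 of the RRBS fish, which had the highest member mean, the differences were 0.32 and 0.30 points. That fish is not benthic 5 of the RNA samples. Littoral minus riverine lay between -0.09 and 0.04 points and was above 0 in 7 of 9 alternatives.

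The counts of called members were less stable, and the cause was not tested. With each pair of populations fitted alone, 187 members were called for benthic minus riverine (beside 4.28% of all sites), 9 for littoral minus riverine (0.563%) and 42 for benthic minus littoral (1.19%). On log2 ratios of percentages, 39 were called for littoral minus riverine (0.877% of all sites) and 57 for benthic minus littoral (0.820%). With log10 mapped reads as a covariate, 14 were called for littoral minus riverine (0.699% of all sites). With fish of at least 6000000 mapped reads, 11 were called for littoral minus riverine (0.540% of all sites) and 24 for benthic minus littoral (0.561%). The other 10 alternatives stayed within 1.5 times.

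Promoter widths and all RNA alternatives were not run, since gene positions were not used here. No paired analysis was possible because the populations compared are different wild fish whose RRBS and RNA labels carry no replicate numbers shared between populations. Unknown read depth per site limits every single value, and exact zeros cannot be told apart from low methylation at few reads.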

Other observations

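Some low-methylated CGs lay among methylated ones. A total of 151 distinct low-methylated CGs (0.352%) had a highly methylated CG within 50 bp on each side, whereas 22118 (51.5%) had a low-methylated CG on each side. The median level was 0.695% for the 151 and 0.655% for the others, and the median SD 2.41 and 2.29 points. A fish at 50% or more was found at 25.2% of the 151 and at 4.88% of the others. Sequence variants at these CGs were not examined.

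Of the 68 CGs with a member on a single strand, the opposite strand was over 80% in 3 and differed by at least 50 points in 6. Strands were assigned only from positions 1 bp apart, and no sequence was used to check them. The widest differences are given here as values, chosen after they were seen. At NC_036781.1:2127990 the member averaged 4.45% and the opposite strand 96.6%, and the strands did not overlap in any population (0 to 23.1% against 91.2% to 100% in benthic fish, 0 to 15.5% against 87.2% to 100% in littoral fish, 0 to 27.7% against 92.7% to 100% in riverine fish). At NC_036786.1:41351033 the member averaged 0.900% and its opposite strand 83.5%. At NC_036796.1:16338171 the member averaged 6.61%, with 3.19% in benthic, 10.9% in littoral and 5.64% in riverine fish, and its opposite strand 88.4%.

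The share of sites that were low-methylated lay between 28.0% (NC_036782.1) and 41.1% (NC_036797.1) of a linkage group's sites. Benthic minus riverine was lowest on NC_036782.1 (0.11 points) and highest on NC_036794.1 (0.57 points).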
